A study of Mus musculus with 17 samples.

Results

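Xcr1, Clec9a, Flt3, Cd209a, Itgae, Siglech, Batf3 and Zbtb46 are marker genes of dendritic cells, and their RNA was followed in irradiated and non-irradiated mouse lungs. They were taken by symbol from the gene count table, where they are 8 of 45777 genes, and all 8 were among the 22052 genes tested. The samples were lungs of wild-type male C57BL/6 mice, which were delivered at an age of 6 weeks and acclimatized for 1 week. The irradiated groups had received a single focal fraction of 65 Gy or 75 Gy to the left lung, and the control groups had received no radiation. Lungs were collected after 2 weeks, the inflammation stage of this model, or after 6 weeks, its fibrosis stage. The 17 libraries comprised 3 controls, 3 of 65 Gy and 3 of 75 Gy at 2 weeks, and 3 controls, 2 of 65 Gy and 3 of 75 Gy at 6 weeks. The paper lists 3 replicates of 65 Gy at 6 weeks, of which only 2 were among the samples used here. RNA of irradiated lungs was isolated from the lesion, so the effect of irradiation and the choice of the piece of lung cannot be told apart. No source states that each library came from a mouse of its own, so p-values measure only the spread between these libraries, which may be technical.

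Dendritic cells take up antigen in tissue, carry it to lymph nodes and present it to T cells. In the lung they fall into conventional type 1 cells (cDC1), which are marked by Xcr1, Clec9a and surface CD103 and cross-present antigen to CD8 T cells, conventional type 2 cells (cDC2), which prime CD4 T cells, and plasmacytoid cells (pDC), which release type I interferon. Flt3 is the receptor of the growth factor Flt3l, on which all of these lineages depend, Batf3 is a transcription factor required for cDC1, and Zbtb46 is a transcription factor of conventional dendritic cells that endothelial cells also express.

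The sequences before the start sites of 4 of the genes are shown because their levels followed different courses: Xcr1 and Flt3 moved together over the libraries, Cd209a stood apart at 6 weeks, and Siglech was called in no group. RefSeq promoter entries on GRCm38.p6 matched 7 of the 8 genes by symbol. Each run is the 250 bases before the start, on the strand of the gene and written 5′ to 3′, with matches to the motifs searched in capitals. The windows are chr9:123862030-123862279 on the minus strand for Xcr1, chr5:147400490-147400739 on the minus strand for Flt3, chr8:3748985-3749234 on the minus strand for Cd209a, and chr7:55767934-55768183 on the plus strand for Siglech.
Xcr1: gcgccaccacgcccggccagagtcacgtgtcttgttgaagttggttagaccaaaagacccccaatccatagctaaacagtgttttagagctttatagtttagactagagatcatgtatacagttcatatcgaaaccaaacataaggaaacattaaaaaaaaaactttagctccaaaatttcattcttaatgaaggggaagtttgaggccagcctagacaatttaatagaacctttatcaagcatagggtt
Flt3: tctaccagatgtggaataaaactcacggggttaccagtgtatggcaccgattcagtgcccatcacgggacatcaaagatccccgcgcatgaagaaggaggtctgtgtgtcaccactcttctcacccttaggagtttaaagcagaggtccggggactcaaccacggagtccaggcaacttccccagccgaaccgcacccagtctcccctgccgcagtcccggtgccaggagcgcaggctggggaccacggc
Cd209a: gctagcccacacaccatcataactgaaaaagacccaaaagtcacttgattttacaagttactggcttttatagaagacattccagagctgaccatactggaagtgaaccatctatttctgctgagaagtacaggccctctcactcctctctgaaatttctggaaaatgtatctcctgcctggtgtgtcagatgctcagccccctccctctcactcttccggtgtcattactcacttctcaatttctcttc
Siglech: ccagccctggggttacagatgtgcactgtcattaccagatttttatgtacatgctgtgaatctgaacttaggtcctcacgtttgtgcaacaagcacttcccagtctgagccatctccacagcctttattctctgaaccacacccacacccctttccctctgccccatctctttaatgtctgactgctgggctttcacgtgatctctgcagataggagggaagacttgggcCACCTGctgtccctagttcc
The search covered both strands for TGANTCA (AP-1, the kind of site that Batf3 binds with its partners), the IRF element (GAAA repeated after any pair of bases), the ETS with IRF element (GGAA in place of the first GAAA), the AP-1 with IRF element, GAGGAAGT (PU.1) and CACCTG (an E-box, which Tcf4 can bind). Of the 7 windows found, those of Siglech and Zbtb46 held matches. The window of Zbtb46, which is not shown because it lies inside the gene, held TGACTCA from -61 to -55 and CACCTG from -238 to -233. Siglech held CACCTG from -20 to -15 relative to its start, and the last bases of this window, the match included, lie within the annotated gene, whose start is upstream of that of the entry. Over the RefSeq table, 17.2% of the 32851 windows of this length held CACCTG. Of the other motifs, TGANTCA was in 6.75% of all windows, the IRF letters in 2.98%, the ETS with IRF letters in 2.3%, GAGGAAGT in 2.44% and the AP-1 with IRF letters in 0.0974%. TGANTCA is part of the AP-1 with IRF letters, so these matches overlap.

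Total counts on genes lay between 46764569 and 66797879 per library, with a median of 57608149, and the 8 genes had from 27 counts (Batf3) to 2723 counts (Zbtb46) in a library. Library 3134 of 75 Gy at 2 weeks stood apart from its group on the first 2 principal components of log2 CPM, the counts scaled to library size, at 59.0 against 17.85 and 23.25 on the first and 62.2 against 42.0 and 24.7 on the second. The controls had negative values and the irradiated libraries positive values on the first. Library 3134 had the highest level of its group for 6 of the 8 genes and the lowest for Cd209a and Zbtb46. Control library 3128 of 2 weeks had the highest level of its group for 7 of the 8 genes. The summed level of 9 lung epithelial markers was between 18670 and 39440 CPM in all libraries, and none of the 9 was at 0 throughout.

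Xcr1 rose in all 4 irradiated groups, by 2.30-fold to 3.85-fold, and Flt3, Itgae and Batf3 were called in 3 of them. Cd209a rose at 6 weeks, to 4.97-fold after 75 Gy, and Clec9a rose after 75 Gy at 6 weeks, by 2.04-fold. Siglech passed the test in no group, and Zbtb46 stood below the controls of the same time in every irradiated library, past the adjusted p in 3 of the 4 groups. In whole tissue, fewer cells of a type and less RNA per cell cannot be told apart. Calls rest on edgeR's quasi-likelihood test, with p-values adjusted by Benjamini-Hochberg over all genes tested, and need an adjusted p up to 0.05 together with a log2 fold change of 1 or more in either direction. After 65 Gy, 1 of 8 genes was called at 2 weeks, against 4.35% of all genes tested, and 5 of 8 at 6 weeks, against 5.28%. After 75 Gy, 4 of 8 were called at 2 weeks, against 7.74% of all genes, and 6 of 8 at 6 weeks, against 10.4%. Single libraries moved these counts: the 4 after 75 Gy at 2 weeks was 1 without library 3134, and also 1 in a fit of the compared groups alone, the 1 after 65 Gy at 2 weeks was 0 without library 3126, 2 without 3129 or 3130 and 3 without 3128, and the 5 after 65 Gy at 6 weeks was 3 without 3135, 3138 or 3140. All of these calls were higher in the irradiated lungs, where the shares of all genes called higher were 3.47%, 4.34%, 5.67% and 7.28% and those called lower 0.88%, 0.943%, 2.07% and 3.13%, for 65 Gy at 2 and 6 weeks and 75 Gy at 2 and 6 weeks. None of the 8 genes was called lower. The median log2 fold change of the 8 genes was 0.64, 1.12, 1.07 and 1.42 in that order, against -0.01, 0.01, 0.00 and 0.04 over all genes tested. The 2 doses of a time share their control libraries. Libraries of 3, 6, 5 and 6 of the 8 genes lay wholly above the controls in that order, against 15.9%, 28.2%, 15.5% and 29.4% of all genes, and those of 1 gene, Zbtb46, lay wholly below them in each, against 13.5%, 28.1%, 14.8% and 27.7%. By adjusted p alone, 3 genes were higher after 65 Gy at 2 weeks, against 6.7% of all genes. With 1 library left out, the adjusted p there reached 0.0703 for Flt3 and 0.0832 for Itgae (edgeR quasi-likelihood).

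**Figure D1:**
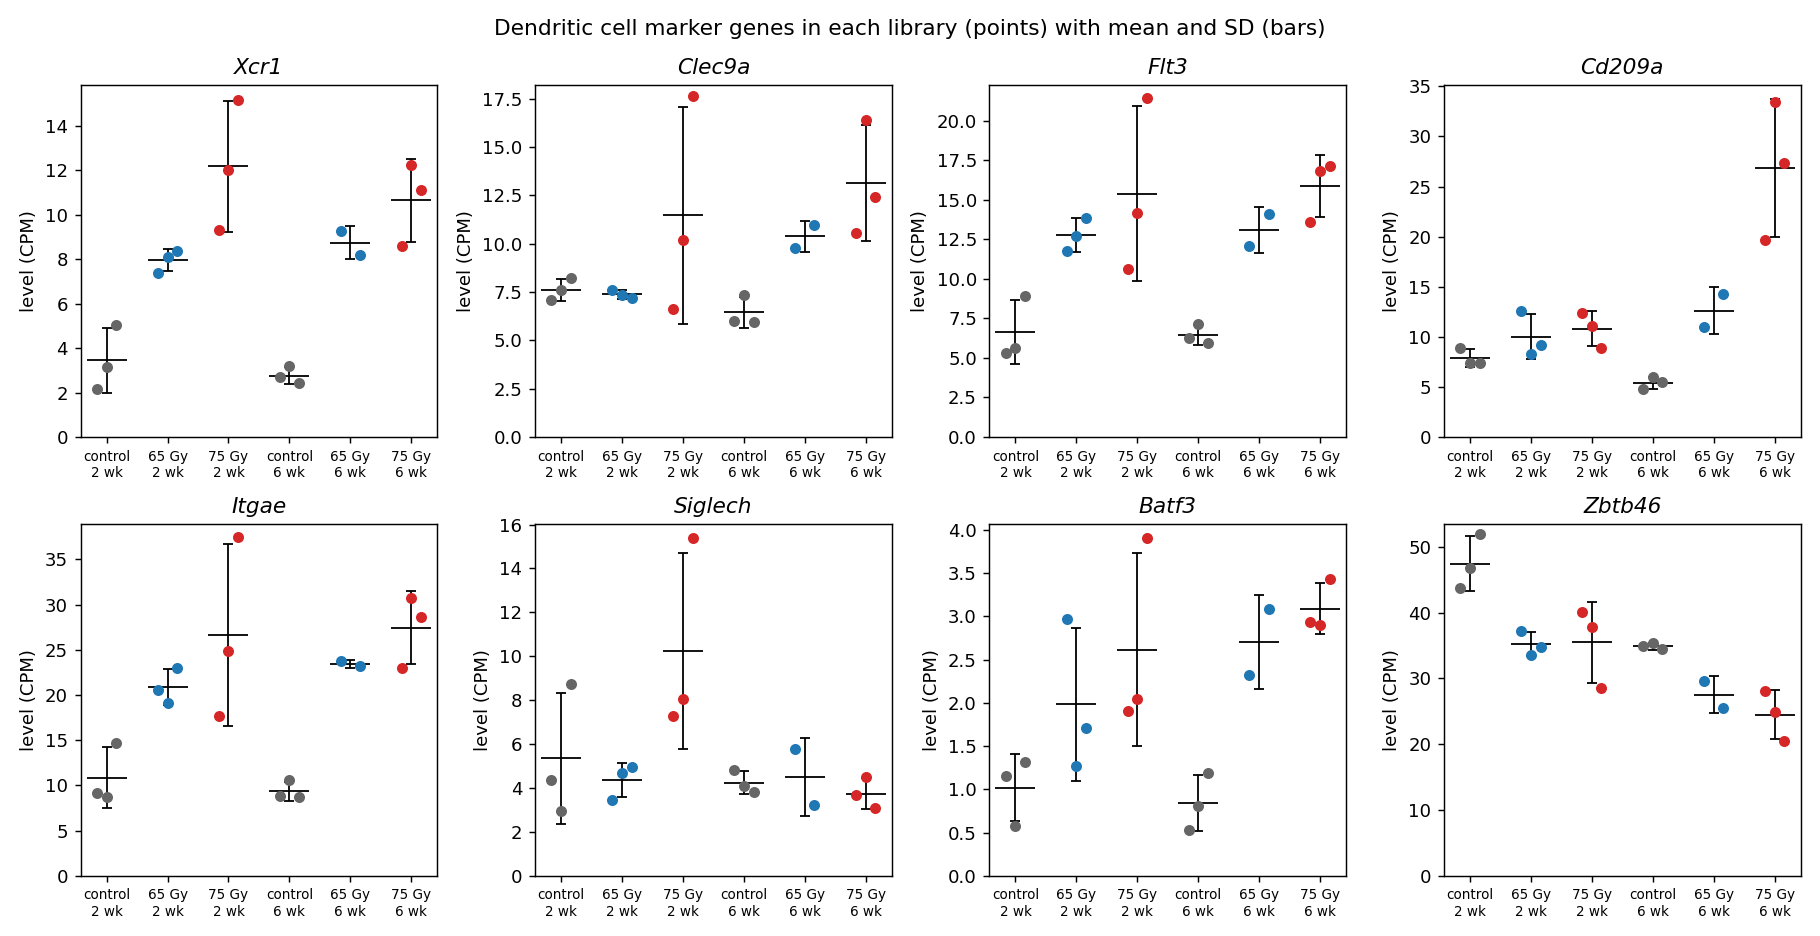
The level of each of the 8 genes in CPM (vertical axes, which differ between panels) in the 17 libraries, as points by group, with the mean and SD of each group. Xcr1, Flt3 and Itgae stood above the controls of the same time in every irradiated library, and Zbtb46 stood below the controls of the same time. Cd209a was highest after 75 Gy at 6 weeks with 19.7 to 33.4 CPM.

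Xcr1 encodes the receptor of the chemokine Xcl1 and is a surface marker of cDC1. Its gene (GeneID 23832) lies on chromosome 9 of GRCm38.p6, from 123852315 to 123862029 on the minus strand. At 2 weeks its level was 2.15, 3.15 and 5.05 CPM in the controls, 7.39, 8.09 and 8.35 after 65 Gy, and 9.30, 12.0 and 15.2 after 75 Gy. The 3 groups did not overlap, and the 2 irradiated groups were in the order of dose. Against control, the fitted log2 fold change was 1.20 ± 0.25 (SE) after 65 Gy (edgeR quasi-likelihood, adjusted p = 0.00721) and 1.82 ± 0.25 after 75 Gy (adjusted p = 0.000226). At 6 weeks its level was 2.71, 3.17 and 2.41 CPM in the controls, 9.27 and 8.21 after 65 Gy, and 8.58, 12.2 and 11.1 after 75 Gy. Both irradiated groups were clear of the controls and overlapped each other. Against control, Xcr1 changed by 1.66 ± 0.27 on the log2 scale after 65 Gy (adjusted p = 0.00138) and 1.94 ± 0.26 after 75 Gy (adjusted p = 7.89e-05, edgeR quasi-likelihood). In the order of group means, from the 6-week controls through the 2-week controls, 65 Gy at 2 weeks, 65 Gy at 6 weeks and 75 Gy at 6 weeks to 75 Gy at 2 weeks, the only neighbours without overlap were the 2-week controls and 65 Gy at 2 weeks. The call after 65 Gy at 2 weeks was lost without control library 3126, where the log2 fold change was 0.95.

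Itgae encodes the integrin chain CD103, which pairs with the chain encoded by Itgb7 to bind E-cadherin and is carried by cDC1 of the lung and by intraepithelial T cells. The gene (GeneID 16407) lies on chromosome 11, from 73090505 to 73147449 on the plus strand. At 2 weeks it was at 9.11, 8.76 and 14.7 CPM in the controls, 20.6, 19.1 and 23.0 after 65 Gy, and 17.7, 24.8 and 37.5 after 75 Gy. Every irradiated library was above every control, and the 2 doses overlapped. The log2 fold change of Itgae was 0.94 ± 0.24 (SE) after 65 Gy, with an adjusted p of 0.0199 that passed while the fold did not, and 1.29 ± 0.24 after 75 Gy (edgeR quasi-likelihood, adjusted p = 0.00152). At 6 weeks it was at 8.82, 10.6 and 8.69 CPM in the controls, 23.8 and 23.2 after 65 Gy, and 22.9, 30.8 and 28.6 after 75 Gy. The log2 fold changes at 6 weeks, 1.33 ± 0.26 after 65 Gy and 1.55 ± 0.24 after 75 Gy, passed with adjusted p of 0.00412 and 0.000257 in the same test. Itgb7 was at 34.7 ± 3.02 CPM (SD, n = 3) in the 2-week controls and between 36.8 and 45.6 CPM in the means of the other 5 groups. Its log2 fold changes lay between -0.02 and 0.39, with adjusted p between 0.267 and 0.994 in the edgeR fit. Without library 3134 the log2 fold change of Itgae after 75 Gy at 2 weeks was 0.97 (adjusted p = 0.0059), under the fold limit, and without control library 3128 that after 65 Gy at 2 weeks was 1.23 (adjusted p = 0.00695), past it. With another library left out, the adjusted p of Itgae after 65 Gy at 2 weeks reached 0.0832 and no longer passed (edgeR quasi-likelihood).

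Batf3, the cDC1 transcription factor, had the lowest read counts of the 8 genes, from 27 to 222 in a library (GeneID 381319, chromosome 1, from 191098414 to 191108943 on the plus strand). At 2 weeks its level was 1.16, 0.578 and 1.32 CPM in the controls, 2.97, 1.27 and 1.71 after 65 Gy, and 1.91, 2.04 and 3.90 after 75 Gy. The 65 Gy group overlapped the controls and the 75 Gy group did not. At 6 weeks it was 0.535, 0.802 and 1.19 CPM in the controls, 2.33 and 3.09 after 65 Gy, and 2.94, 2.90 and 3.43 after 75 Gy. All 5 irradiated libraries of 6 weeks were above the 3 controls. The log2 fold change of Batf3 was 0.96 ± 0.39 (SE, adjusted p = 0.132) and 1.36 ± 0.39 (adjusted p = 0.0207) after 65 Gy and 75 Gy at 2 weeks, and 1.69 ± 0.42 (adjusted p = 0.0161) and 1.88 ± 0.39 (adjusted p = 0.00211) at 6 weeks, in edgeR's quasi-likelihood test. The call of Batf3 after 75 Gy at 2 weeks was lost without library 3134 (log2 fold change 0.95, adjusted p = 0.115) or control library 3127 (adjusted p = 0.0893). After 65 Gy at 6 weeks it was lost without control library 3135 or 3136 or either irradiated library, with adjusted p from 0.054 to 0.116.

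Clec9a encodes the receptor by which cDC1 sense actin filaments of dead cells. It was not called at 2 weeks. The gene (GeneID 232414) lies on chromosome 6, from 129408862 to 129424764 on the plus strand. Its level was 7.06, 7.60 and 8.20 CPM in the 2-week controls, 7.60, 7.33 and 7.18 after 65 Gy, and 6.60, 10.2 and 17.6 after 75 Gy. The 65 Gy libraries lay inside the range of the controls, with a log2 fold change of -0.05 (95% interval -0.59 to 0.50), and the 75 Gy libraries lay on both sides of it. The log2 fold change after 75 Gy was 0.59 ± 0.26 (SE, adjusted p = 0.113, edgeR quasi-likelihood), and 0.14 without library 3134. At 6 weeks Clec9a was at 6.00, 7.36 and 5.97 CPM in the controls, 9.80 and 10.9 after 65 Gy, and 10.6, 16.4 and 12.4 after 75 Gy. All 5 irradiated libraries were above the 3 controls. In the fit, Clec9a stood at 0.69 ± 0.28 after 65 Gy (adjusted p = 0.117) and 1.03 ± 0.26 after 75 Gy (adjusted p = 0.00643). The latter was close to the limit of 1, and it fell to 0.84 without library 3142 and to 0.98 or 0.97 without control library 3135 or 3137.

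Flt3, the receptor tyrosine kinase of the dendritic cell lineages, rose in every irradiated group, although the rise after 65 Gy at 2 weeks was under the fold limit, which it passed without library 3128 (log2 fold change 1.22) or 3129 (1.001). With another library left out, the adjusted p of Flt3 after 65 Gy at 2 weeks reached 0.0703 and no longer passed (edgeR quasi-likelihood). The gene (GeneID 14255) lies on chromosome 5, from 147330741 to 147400489 on the minus strand. At 2 weeks it was at 5.30, 5.63 and 8.94 CPM in the controls, 11.8, 12.7 and 13.9 after 65 Gy, and 10.6, 14.1 and 21.4 after 75 Gy. Neither irradiated group overlapped the controls. For Flt3 the log2 fold change was 0.95 ± 0.23 (SE, adjusted p = 0.0165) after 65 Gy and 1.21 ± 0.23 (adjusted p = 0.00185) after 75 Gy, in edgeR's quasi-likelihood test. At 6 weeks Flt3 was at 6.26, 7.17 and 5.97 CPM in the controls, 12.1 and 14.1 after 65 Gy, and 13.6, 16.8 and 17.1 after 75 Gy. The groups were again apart from the controls, by log2 fold changes of 1.02 ± 0.25 (adjusted p = 0.0148) and 1.29 ± 0.23 (adjusted p = 0.000687). The first of these was lost as a call without library 3135, 3137, 3138 or 3140, with log2 fold changes from 0.91 to 1.14 and adjusted p up to 0.1, and the call after 75 Gy at 2 weeks was lost without library 3134 (log2 fold change 0.90, adjusted p = 0.00744). The ligand Flt3l went the other way at 2 weeks. Its level was 37.4 ± 11.2 CPM (SD, n = 3) in the controls, 24.2 ± 0.37 after 65 Gy and 22.8 ± 4.28 after 75 Gy, and its log2 fold changes of -0.63 ± 0.19 (SE, adjusted p = 0.0434) and -0.71 ± 0.19 (adjusted p = 0.0129) passed the adjusted p and not the fold limit. The lowest control, at 24.5 CPM, lay within the range of both irradiated groups. The adjusted p of Flt3l rose above 0.05 after either dose without control library 3127 or 3128, and after 75 Gy without 3134. After 65 Gy it also did so without irradiated library 3129, 3130 or 3131 or some of the 6-week libraries. At 6 weeks the log2 fold changes of Flt3l, -0.34 and -0.30, did not pass (edgeR, adjusted p = 0.303 and 0.23).

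Cd209a encodes a C-type lectin of the DC-SIGN family that marks cDC2 and dendritic cells derived from monocytes. It passed the test at 6 weeks and not at 2 weeks. The gene (GeneID 170786) lies on chromosome 8, from 3743395 to 3748984 on the minus strand, next to related lectin genes, among which reads of shared sequence could be split. At 2 weeks it was at 8.87, 7.34 and 7.40 CPM in the controls, 12.6, 8.33 and 9.15 after 65 Gy, and 12.4, 11.1 and 8.93 after 75 Gy. The 65 Gy group overlapped the controls, and the lowest 75 Gy library was barely above the highest control. The log2 fold changes, 0.35 ± 0.20 (SE, adjusted p = 0.308) and 0.46 ± 0.20 (adjusted p = 0.119), did not pass edgeR's quasi-likelihood test. At 6 weeks Cd209a was at 4.75, 5.99 and 5.45 CPM in the controls, 10.95 and 14.3 after 65 Gy, and 19.7, 33.4 and 27.4 after 75 Gy. The 3 groups of 6 weeks were apart from each other in the order of dose. For Cd209a the log2 fold change was 1.23 ± 0.22 after 65 Gy (adjusted p = 0.00267) and 2.31 ± 0.21 after 75 Gy (adjusted p = 4.51e-06, edgeR quasi-likelihood). Leaving out any single library kept both calls, with log2 fold changes from 1.03 to 1.42 and from 2.13 to 2.49. The effect of 75 Gy was larger at 6 than at 2 weeks, by 1.86 ± 0.29 (SE) on the log2 scale in the interaction term of the same fit (adjusted p = 0.0125), a difference that was called for 0.254% of all genes tested. The control level itself was lower at 6 than at 2 weeks, by a log2 fold change of -0.54 ± 0.20 that did not pass (adjusted p = 0.216), and this enters the interaction. For 65 Gy the corresponding difference was 0.88 ± 0.30 (adjusted p = 0.478).

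Siglech encodes a receptor of pDC. It showed no called change in any comparison. The gene (GeneID 233274) lies on chromosome 7, from 55768154 to 55779448 on the plus strand. At 2 weeks it was at 4.36, 2.95 and 8.71 CPM in the controls, 3.47, 4.66 and 4.97 after 65 Gy, and 7.27, 8.055 and 15.4 after 75 Gy. The controls were widely spread and overlapped both irradiated groups. The log2 fold change was -0.29 (95% interval -1.06 to 0.47) after 65 Gy and 0.93 (0.17 to 1.70) after 75 Gy (edgeR quasi-likelihood, adjusted p = 0.67 and 0.0745). Without control library 3128, the highest control, the value after 75 Gy was 1.48 (adjusted p = 0.0097), without library 3132 it was 1.12 (adjusted p = 0.0459), and without library 3134 it was 0.52 (adjusted p = 0.358). At 6 weeks Siglech was at 4.82, 4.08 and 3.81 CPM in the controls, 5.76 and 3.23 after 65 Gy, and 3.66, 4.49 and 3.09 after 75 Gy. All 3 groups overlapped, and the 95% intervals of the log2 fold changes, -0.77 to 0.94 and -0.95 to 0.59, left room for a change in either direction.

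Zbtb46 was lower past the adjusted p in 3 of the 4 irradiated groups, each of which depended on single libraries. The gene (GeneID 72147) lies on chromosome 2, from 181371009 to 181493262 on the minus strand. At 2 weeks it was at 43.7, 46.7 and 51.9 CPM in the controls, 37.2, 33.6 and 34.8 after 65 Gy, and 40.1, 37.8 and 28.5 after 75 Gy. At 6 weeks it was at 34.9, 35.4 and 34.4 CPM in the controls, 29.5 and 25.5 after 65 Gy, and 28.0, 24.9 and 20.5 after 75 Gy. Every irradiated library was below every control of its time. The log2 fold change was -0.43 ± 0.13 (SE, adjusted p = 0.0452) and -0.42 ± 0.13 (adjusted p = 0.0298) after 65 Gy and 75 Gy at 2 weeks, and -0.34 ± 0.15 (adjusted p = 0.132) and -0.51 ± 0.13 (adjusted p = 0.00717) at 6 weeks, in edgeR's quasi-likelihood test. None reached the fold limit. By adjusted p alone, 4.29%, 10.5%, 7.01% and 18.0% of all genes were lower in the 65 Gy and 75 Gy comparisons of 2 weeks and of 6 weeks. After 75 Gy at 2 weeks the adjusted p of Zbtb46 was 0.126 without library 3134, 0.112 without 3128 and 0.0645 without 3127. After 75 Gy at 6 weeks it was 0.053 without library 3143, and after 65 Gy at 2 weeks it was above 0.05 when any of 12 of the 17 libraries was left out singly, at up to 0.147. Markers of endothelial cells moved with it. Cdh5, the cadherin of endothelial junctions, was at 1043 ± 149 CPM (SD, n = 3) in the 2-week and 1128 ± 38.1 CPM in the 6-week controls, and at 731 ± 16.8, 621 ± 162, 599 ± 56.8 (n = 2) and 427 ± 73.0 CPM after 65 Gy and 75 Gy at 2 weeks and at 6 weeks. Its log2 fold changes were -0.51, -0.75, -0.91 and -1.40, with adjusted p of 0.0653, 0.00559, 0.00686 and 4.88e-05 in the edgeR fit. The third of these depended on library 3138, without which it was -0.81 with 1 library left in the group. Of 15 endothelial markers, none of which was at 0 throughout, 8, 12, 11 and 14 were lower past the adjusted p in the same order, and 1, 3, 3 and 11 were called, of which the second count was 1 without library 3134 and the third 1 without library 3138. Their summed level was 5362 to 6321 CPM in the controls and 2299 to 4185 CPM in the irradiated libraries. The part of endothelial RNA in the level of Zbtb46 was not tested.

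**Figure D2:**
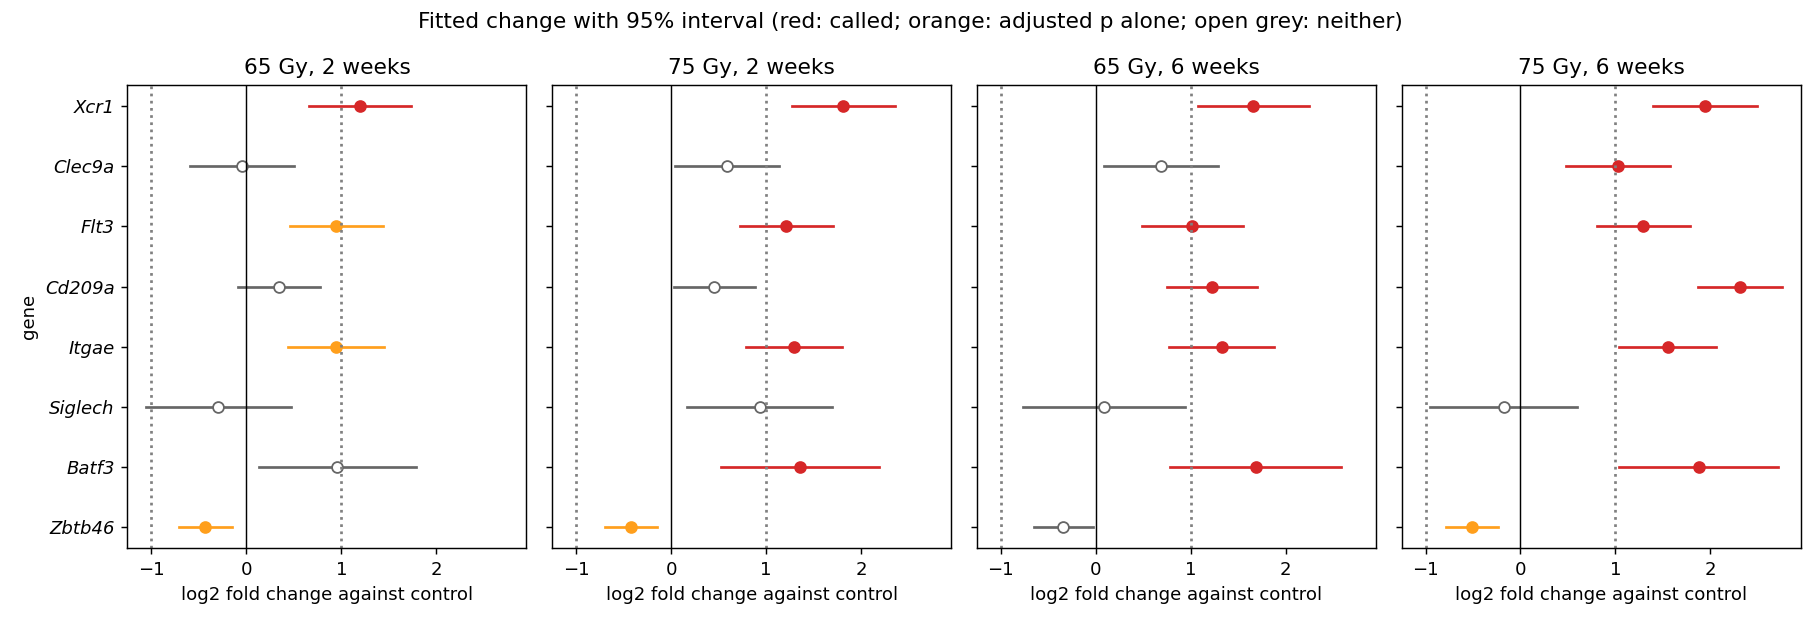
Log2 fold change of each gene against the controls of its time (horizontal axis), with its 95% interval, in the 4 irradiated groups, where the dotted lines mark the fold limits of 1 and -1. Xcr1 was called in all 4 panels, Cd209a moved from 0.35 and 0.46 at 2 weeks to 1.23 and 2.31 at 6 weeks, Siglech was called in none, and Zbtb46 lay below 0 in all 4.

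The 2 doses were compared directly to ask whether the lower dose gave a smaller response. The question could not be resolved for these genes: 0 of 8 were called between 75 Gy and 65 Gy at either time, and 0.0% of all genes tested were called in edgeR's quasi-likelihood test. At an unadjusted p under 0.05 there were 3 of 8 at 2 weeks, against 7.12% of all genes, and 1 of 8 at 6 weeks, against 6.49%. DESeq2 and edgeR's exact test each called 0 of 8 at 2 weeks and 1, Cd209a, at 6 weeks. The shares of all genes that these 2 tests called are not given here, so the 1 of 8 has no background to be read against. At 2 weeks the 3 were Xcr1, which was 0.62 (95% interval 0.10 to 1.13) higher after 75 Gy on the log2 scale, Clec9a, at 0.64 (0.09 to 1.18), and Siglech, at 1.23 (0.46 to 2.00), each with an adjusted p of 0.693. Of these, Xcr1 and Siglech did not overlap between the doses, as was the case, with 75 Gy higher, for 5.0% of all genes. Without library 3134 the values were lower for each of these 3, down to 0.43, 0.19 and 0.81. Cd209a was the 1 at 6 weeks, at 1.09 (0.60 to 1.57, adjusted p = 0.514), with 75 Gy above 65 Gy in every library, as for 15.6% of all genes. DESeq2 gave an adjusted p of 0.0098 and edgeR's exact test 0.0237 for the same difference. For Flt3, Itgae and Batf3 the intervals of the difference between doses contained 0 at both times and reached up to 0.82, 0.85 and 1.19.

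Between the controls of 6 and of 2 weeks, 0 of 8 genes were called by edgeR's quasi-likelihood test, its exact test or DESeq2, against 0.576% of all genes in the first of these, and 2 of 8 had an unadjusted p under 0.05, against 15.5%. These were Zbtb46, at -0.44 ± 0.13 (SE, adjusted p = 0.111), and Cd209a, and both lay wholly below the 2-week controls, as 11.2% of all genes did. The effects of the doses were also compared between times. For 65 Gy 0 of 8 genes differed, against 0.0136% of all genes, and 1 of 8 had an unadjusted p under 0.05, against 8.65%, while DESeq2 also called 0. For 75 Gy 1 of 8, Cd209a, differed, and 2 of 8 had an unadjusted p under 0.05, against 16.1%. Siglech had the opposite sign, with an effect that was 1.11 ± 0.51 lower at 6 weeks on the log2 scale, and did not pass (adjusted p = 0.301).

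Levels of different genes were compared per kilobase of merged exons from GENCODE vM21, an annotation other than the authors' own. In the controls Zbtb46 was highest, at 5.58 ± 0.49 CPM per kb (SD, n = 3) at 2 weeks and 4.10 ± 0.06 at 6 weeks, followed by Cd209a at 4.97 ± 0.55 and 3.41 ± 0.39. After irradiation Cd209a stood above Zbtb46 in each of the 4 groups, and after 75 Gy at 6 weeks it reached 16.9 ± 4.35 CPM per kb against 2.88 ± 0.44. Itgae was the second of the 8 in all 4 irradiated groups, from 4.56 to 5.99 CPM per kb in the means. Batf3 was last in both control groups, and Siglech was last in both irradiated groups of 6 weeks, at 1.33 ± 0.53 (n = 2) and 1.11 ± 0.21 CPM per kb.

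Because Clec9a and Xcr1 are both cDC1 markers, their ratio within a library was compared as well, a choice made after the values were seen and therefore given with no test. Clec9a had 1.62 to 3.28 times the CPM of Xcr1 in the 2-week controls and 2.22 to 2.48 times in the 6-week controls. In irradiated libraries the ratio was 0.859 to 1.03 after 65 Gy and 0.71 to 1.16 after 75 Gy at 2 weeks, and 1.06 to 1.33 and 1.11 to 1.34 at 6 weeks. No irradiated library reached the lowest control of its time. The ratio of Siglech to Xcr1 was 0.939 to 2.03 in the 2-week and 1.29 to 1.78 in the 6-week controls. It was 0.469 to 0.595 after 65 Gy and 0.67 to 1.01 after 75 Gy at 2 weeks, and 0.393 to 0.621 and 0.278 to 0.426 at 6 weeks, so that only the 75 Gy group of 2 weeks overlapped its controls.

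**Figure D3:**
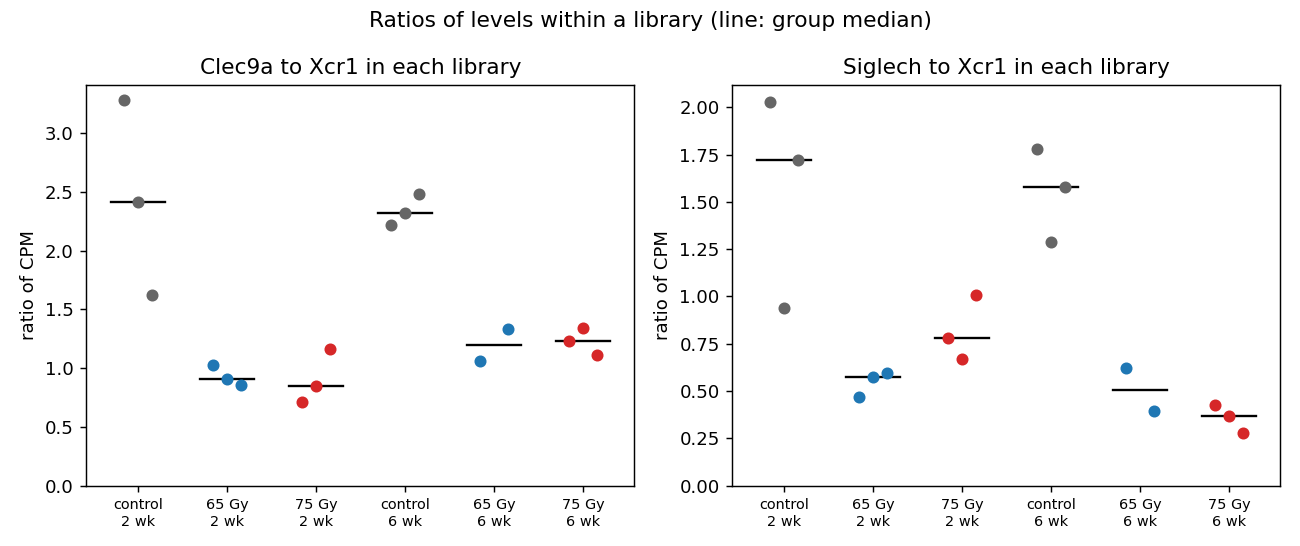
Ratio of the CPM of Clec9a to Xcr1 (left) and of Siglech to Xcr1 (right) in each library, with the group medians as lines. The median ratio of Clec9a to Xcr1 was 2.41 and 2.32 in the controls of 2 and 6 weeks and between 0.845 and 1.23 in the irradiated groups.

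Over the 17 libraries, which include the differences between groups, the levels of Flt3 and Itgae followed each other most closely, with a Pearson r of 0.99 in log2 CPM, and Xcr1 had an r of 0.97 with each of them. After the group means were subtracted, the r of Flt3 and Itgae was 0.96, and that of Xcr1 was 0.87 with Flt3 and 0.85 with Itgae. Cd209a, by contrast, had an r of 0.68 with Xcr1 over all libraries and -0.17 within groups. Batf3 followed Itgae at 0.90 over all libraries and 0.53 within groups. These values are descriptions over libraries that share their groups, and no p was taken from them.

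**Figure D4:**
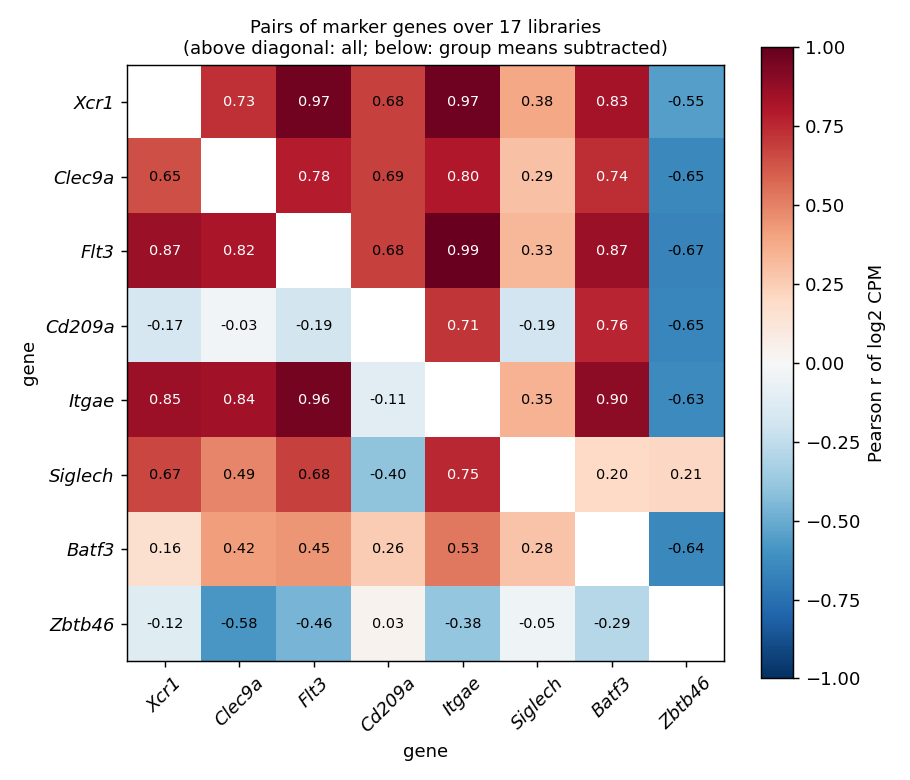
Pearson r of log2 CPM between the 8 genes over 17 libraries, above the diagonal as measured and below it with the group means subtracted. Flt3, Itgae and Xcr1 stood between 0.97 and 0.99 above the diagonal, and Zbtb46 had a negative r with every gene but Siglech there.

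Among all 22052 genes, those with the highest r to each marker were listed over the same 17 libraries. For Xcr1 they were Stard5 (0.98), Itgae (0.97) and Dnase1l3 (0.97), for Flt3 Itgae (0.99), Naaa (0.98) and Dcstamp (0.97), and for Itgae Flt3 (0.99), Dcstamp (0.98) and Xcr1 (0.97). Clec9a was nearest to C430002N11Rik (0.92), Pla2g7 (0.91) and Il1rl1 (0.91), and Batf3 had high values with Pkib (0.93) and Cd86 (0.93), a costimulatory ligand of antigen-presenting cells. Cd209a was nearest to Mgl2 (0.94), Mgp (0.93) and Igfbp7 (0.93), Zbtb46 to Gm46041 (0.97), Pcdh12 (0.95) and Rtp3 (0.95), and Siglech, with lower values, to Pheta2 (0.88), LOC115489988 (0.80) and Rhov (0.80). Mgl2 is a galactose-binding lectin that marks cDC2 and some macrophages. Its level was 15.4 ± 1.95 CPM (SD, n = 3) in the 6-week controls, 63.2 ± 7.92 (n = 2) after 65 Gy and 112 ± 20.3 after 75 Gy. Like Cd209a, Mgl2 had a larger effect of 75 Gy at 6 weeks than at 2 weeks, by 1.64 ± 0.30 (SE) on the log2 scale (adjusted p = 0.0317, edgeR interaction term).

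Partner genes of the markers were read in the same fit. Xcl1, the ligand of Xcr1 that is made by activated CD8 T cells and natural killer cells, rose after both doses at 2 weeks, from 0.87 ± 0.54 CPM (SD, n = 3) in the controls to 2.83 ± 0.87 after 65 Gy and 6.43 ± 4.29 after 75 Gy. Its log2 fold changes were 1.70 ± 0.47 (SE, adjusted p = 0.0327) and 2.88 ± 0.48 (adjusted p = 0.000841), and at 6 weeks 1.23 ± 0.53 (adjusted p = 0.139) and 1.33 ± 0.49 (adjusted p = 0.0451, edgeR). The call of Xcl1 after 65 Gy at 2 weeks was lost without library 3127, 3128, 3129 or 3131, and that after 75 Gy at 6 weeks without any library of its own 2 groups but 3141 and without several libraries of other groups. Irf8, the transcription factor that specifies cDC1 and pDC, was called after 75 Gy at 2 weeks, with a log2 fold change of 1.02 ± 0.25 (adjusted p = 0.00818) at the limit of the fold. Its level there ranged from 67.6 to 169 CPM against 47.6 to 70.0 CPM in the controls, and the call was lost without library 3134 (0.60), 3126 (0.92) or 3127 (0.94). Irf8 had values of 0.61, 0.39 and 0.23 that did not pass after 65 Gy at 2 and 6 weeks and 75 Gy at 6 weeks. Irf4, which cDC2 require, passed the adjusted p after 75 Gy at 6 weeks alone, at 0.76 ± 0.25 (adjusted p = 0.03), and no longer passed it without library 3136, 3137, 3142 or 3143.

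The other genes of dendritic cells and antigen presentation were grouped in 7 lists, all of whose genes were tested. Of 14 other cDC1 genes, 2, 5, 7 and 7 were called higher after 65 Gy at 2 weeks, 65 Gy at 6 weeks, 75 Gy at 2 weeks and 75 Gy at 6 weeks, and none lower. These counts and those of the lists that follow stand against the 3.47%, 4.34%, 5.67% and 7.28% of all genes called higher and the 0.88%, 0.943%, 2.07% and 3.13% called lower. Itgax, which encodes the integrin chain CD11c that alveolar macrophages share, was called in all 4, with log2 fold changes of 1.15, 1.61, 1.74 and 1.72. Id2, a regulator that cDC1 require, was past the adjusted p but under the fold limit in all 4, from 0.65 to 0.97, and Gcsam was called at 6 weeks, at 1.31 and 1.64. Of 19 cDC2 genes, 4, 7, 6 and 6 were called higher and 0, 1, 2 and 1 lower in that order. Tnip3, an inhibitor of NF-kB signalling, rose in all 4, from 1.32 to 3.15 on the log2 scale, although the call after 65 Gy at 2 weeks was lost without any 2-week library of these groups but 3126. Klf4, a transcription factor of cDC2 that endothelial and other cells also express, was lower past the adjusted p in all 4 comparisons and called in all but 65 Gy at 2 weeks, with log2 fold changes of -0.83, -1.17, -1.48 and -1.14, of which the second was -0.95 without library 3138. Ffar2, a receptor of short-chain fatty acids, was called in all but 75 Gy at 6 weeks, and its call after 65 Gy at 6 weeks was lost without library 3136, 3137 or 3138.

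Of 17 pDC genes, 1, 1, 5 and 3 were called higher in the same order and none lower, and the counts after 65 Gy were close to the share over all genes. Irf7, the regulator of type I interferon that many cells induce, was called at 2 weeks, at 1.73 after 65 Gy and 1.86 after 75 Gy. Its 75 Gy libraries ranged from 48.2 to 154 CPM with a median of 48.5, against 23.1 ± 1.35 CPM (SD, n = 3) in the controls, and the log2 fold change of Irf7 was 1.07 without library 3134. Cd4, which helper T cells also carry, was called at 6 weeks, at 1.04 and 1.17, the first of which was lost without library 3136, 3137, 3138 or 3140. Tcf4, the transcription factor that specifies pDC and is also widely expressed, was lower past the adjusted p in all 4, from -0.53 to -0.28, and Bst2, an interferon-induced surface protein, was higher past it in all but 65 Gy at 6 weeks, at up to 0.998. After 65 Gy at 2 weeks neither passed it without library 3127, 3128, 3129, 3130 or 3131. Tcf4 also did not pass it there without 6-week library 3135, 3136, 3137, 3138, 3140, 3142 or 3143. The summed level of the 17 pDC genes was 354 to 434 CPM in the controls and 378 to 633 CPM in irradiated libraries.

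Genes of mature, migrating dendritic cells were called higher at 7, 7, 8 and 9 of 20, with none lower, and no single library moved these counts by over 1.5 times. Ccr7 of this list overlapped the controls of its time in each irradiated group. Its means were 25.8 CPM in the 2-week controls, 31.66 after 65 Gy and 27.22 after 75 Gy. At 6 weeks they were 28.23, 28.08 (n = 2) and 33.88 CPM. Il12b, a subunit of interleukin 12, rose in all 4, with log2 fold changes of 2.52, 2.25, 2.24 and 2.95, from 1.04 ± 0.42 CPM (SD, n = 3) in the 2-week and 0.71 ± 0.07 CPM in the 6-week controls. Ccl17, a chemokine that draws T cells carrying Ccr4, was called in all 4 and stood at 2.99 after 65 Gy and 3.31 after 75 Gy at 6 weeks, and its call after 65 Gy at 2 weeks, at 1.16, was lost without library 3127, 3128, 3129 or 3131 or some of the 6-week libraries. Il4i1, an amino acid oxidase of antigen-presenting cells, was called in all 4 as well, between 1.47 and 1.99, but not after 65 Gy at 6 weeks without library 3138. Of 20 growth factor and chemokine partners, 6, 6, 9 and 6 were called higher and 1 lower in each comparison. The chemokine Ccl20 rose at 6 weeks, by 3.29 and 4.09 on the log2 scale from 0.25 ± 0.13 CPM. Ccl3, a chemokine of macrophages and other leukocytes, was called in all but 75 Gy at 6 weeks, where its log2 fold change was 0.79, and its call after 65 Gy at 6 weeks was lost without library 3135, 3137, 3138 or 3140. Kit, the receptor of stem cell factor on mast cells and progenitors, was the gene called lower, at -1.30, -1.004, -1.37 and -1.54 after 65 Gy at 2 and 6 weeks and 75 Gy at 2 and 6 weeks. The second of these was at the fold limit, and its call was lost without library 3126, 3132, 3136, 3138, 3140, 3141, 3142 or 3143 and under other scalings.

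Of 18 transcription factors of dendritic cells, which include Irf8, Irf4, Id2, Klf4 and Tcf4 from the lists above, 0, 0, 2 and 1 were called higher and 0, 1, 1 and 1 lower, to be read against the shares over all genes given above. The count of 2 higher after 75 Gy at 2 weeks was 0 without library 3134, 1 without 3126 or 3127, 4 without 3128 or 3132 and 5 without 3133, and the count of 1 after 75 Gy at 6 weeks was 3 without 3135 and 0 without 3136, 3137, 3142 or 3143. Of 11 genes of antigen presentation by MHC class II, 1, 4, 8 and 6 were called higher and none lower. Ctss, the protease cathepsin S that trims the invariant chain, rose in all 4, by 2.27, 2.77, 3.18 and 3.34 on the log2 scale. H2-Aa, a chain of the MHC class II molecule, was called in all but 65 Gy at 2 weeks, with 1.14, 1.32 and 1.60, and H2-DMb1, a chain of its peptide-loading partner, was called after 75 Gy, at 1.32 and 1.12. Without library 3134 their log2 fold changes after 75 Gy at 2 weeks were 0.89 and 0.96, under the limit, and the call of H2-Aa after 65 Gy at 6 weeks was lost without library 3138. The medians of the log2 fold changes were 0.63, 0.83, 0.99 and 0.90 for the other cDC1 genes, 0.34, 0.97, 0.69 and 0.82 for the cDC2 genes, 0.30, 0.35, 0.60 and 0.63 for the pDC genes, 0.55, 0.79, 0.75 and 0.98 for the mature genes, 0.64, 0.53, 0.99 and 0.42 for the partners, 0.25, 0.20, 0.42 and 0.21 for the transcription factors and 0.70, 0.88, 1.25 and 1.12 for antigen presentation. Without library 3134, the counts called higher after 75 Gy at 2 weeks were 4 for the other cDC1 genes, 1 for the pDC genes and 3 for antigen presentation. In a fit of the compared groups alone, the first 2 of these were 3 and 0. The counts after 65 Gy rested on single libraries as well. At 2 weeks the cDC2 count of 4 was 1 without library 3127, 3129 or 3131 and 2 without 3126, 3128 or 3130, the partner count of 6 was 3 without 3127 or 3129, and the cDC1 count of 2 was 1 without either of these. At 6 weeks the cDC1 count of 5 was 3 without library 3138 or 3140, the cDC2 count of 7 was 3 without 3138 and 4 without 3136 or 3137, the pDC count of 1 was 0 without 3136, 3137, 3138 or 3140, and the antigen presentation count of 4 was 1 without 3138 and 2 without 3135, 3137 or 3140. After 75 Gy at 2 weeks the pDC count of 5 was also 3 without control library 3127 and 8 without 3128.

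**Figure D5:**
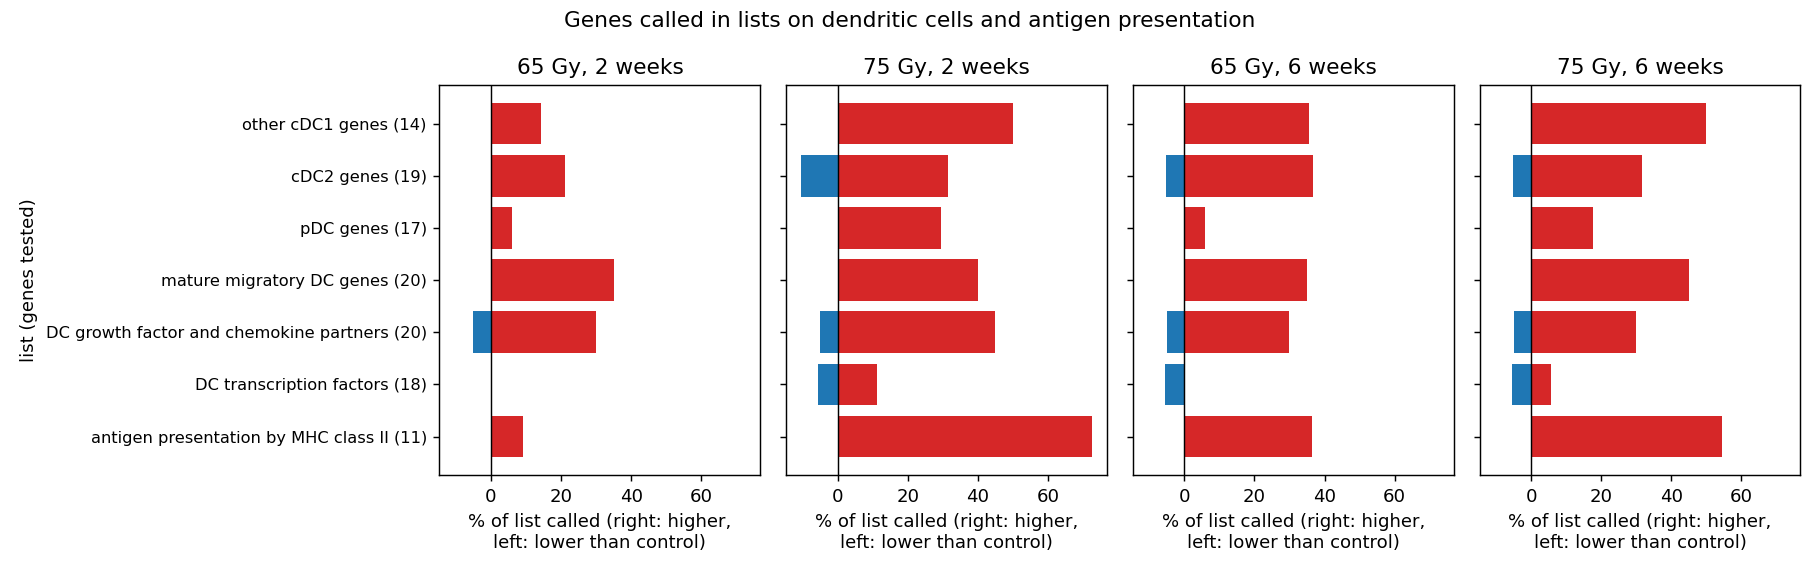
Share of each list called higher (right, red) or lower (left, blue) than the controls of the same time, in percent of the genes tested, whose number is in parentheses. The genes of antigen presentation had the longest bar after 75 Gy at 2 weeks, with 8 of 11 called, and no pDC bar was longer than 5 of 17.

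Several markers belong to more than 1 cell type, so the lists of other cells were read beside them. Of 15 monocyte and macrophage markers, 8, 10, 9 and 9 were called higher after 65 Gy at 2 and 6 weeks and 75 Gy at 2 and 6 weeks, and none lower. Their median log2 fold changes were 1.0, 1.47, 1.77 and 1.6 in that order. Each was above the median of the 8 dendritic cell markers (0.64, 1.12, 1.07 and 1.42) and above those of the 7 lists on dendritic cells and antigen presentation. Adgre1, which encodes the macrophage protein F4/80, rose by 1.39, 1.46, 1.77 and 1.83 on the log2 scale, and the summed level of the list was 4886 to 11030 CPM in the controls and 9670 to 16650 CPM after irradiation. Of 14 markers of T cells and intraepithelial lymphocytes, which can carry Itgae, 2, 4, 4 and 6 were called higher, and their sum was 125.6 to 176 CPM in the controls and 144 to 373 CPM after irradiation. The list did not move as 1. At 6 weeks the mean of Cd8a was 10.76 CPM in the controls, 10.38 after 65 Gy (n = 2) and 7.759 after 75 Gy. That of Cd8b1 was 8.273, 7.728 and 5.813 CPM, and that of Foxp3 was 1.743, 5.725 and 10.24 CPM. Cd3e, a chain of the T cell receptor complex, had log2 fold changes of 0.52, 0.75, 0.81 and 0.58, of which the 75 Gy value at 2 weeks passed the adjusted p (0.0426, edgeR), though not without library 3134 (0.40, adjusted p = 0.269) or any of the 2-week controls or some of the 6-week libraries. Of 6 general leukocyte markers, 1, 1, 3 and 2 were called higher, with sums of 668 to 1009 CPM in the controls and 1025 to 1860 CPM after irradiation. Of 9 B cell markers, none were called higher and 0, 1, 2 and 2 were called lower, and of the 9 epithelial markers none were called in either direction by edgeR's quasi-likelihood test. By adjusted p alone, 0, 4, 6 and 7 of the B cell markers and 2, 1, 3 and 4 of the epithelial markers were lower. The shares of all genes lower by that rule were 4.29%, 7.01%, 10.5% and 18.0%. No marker of these lists was at 0 throughout. Without library 3134 the leukocyte count after 75 Gy at 2 weeks was 1, and the T cell count after 65 Gy at 6 weeks was 0 without library 3136, 3137 or 3138 and 1 without 3140. The counts of B cell markers called lower lay between 0 and 5 when single libraries were left out. The part of these cells in the levels of the 8 genes was not tested.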

How the data were processed

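RNA of 17 mouse lung samples was sequenced by the authors from stranded mRNA libraries as paired reads, which were trimmed with Trimmomatic, aligned to GRCm38.p6 with HISAT2 and assembled with StringTie. The deposited values are raw counts per gene, and the step from StringTie to whole-number counts is not given in the sources used here. Total counts per library are given with the results. From the counts, 1 negative binomial model over all 17 libraries and 6 groups was fitted with edgeR 4.0.16 in R 4.3.3 (TMM scaling, quasi-likelihood test, Benjamini-Hochberg adjustment), after low counts were removed (a minimum of 10 in enough libraries and 15 in all), which left 22052 of 45777 genes. Calls needed both an adjusted p up to 0.05 and a log2 fold change of 1 or more in either direction. CPM are counts relative to TMM-scaled library size, and log2 CPM used a prior count of 2. Intervals are 95% intervals of the fit. The common biological coefficient of variation was 0.19. Exon lengths came from GENCODE vM21 on GRCm38. The code was tested on simulated data.

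The members and gene lists were chosen with earlier results of these data known. The text names all 8 members, the 2 genes with the smallest p in each list on dendritic cells or antigen presentation in each comparison of an irradiated group with its controls, the 3 genes most correlated with each member, Cdh5, Cd3e and Adgre1 as markers of other cells, and the partners Flt3l, Xcl1, Itgb7, Irf8 and Irf4. Some items that this rule names are not reported here. Alternatives were DESeq2 1.42.0, edgeR's exact test, other scaling and filters, fits of the compared groups alone, the adjusted p alone, and leaving out each library in turn. The ratios within libraries were added after the values were seen.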

Additional observations from a re-analysis of the deposited data

Results flagged for a closer look

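The effect of 75 Gy on Cd209a differed between the times of collection. The interaction term of the edgeR fit was 1.86 ± 0.29 (SE) on the log2 scale, with a 95% interval from 1.25 to 2.47 and an adjusted p of 0.0125. When single libraries were left out, the value of Cd209a lay between 1.67 and 2.03, with adjusted p from 0.00798 to 0.0411, and without library 3134 it was 1.74 (adjusted p = 0.0208). The 3 libraries of 75 Gy at 6 weeks were above every other library of the series.

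Mgl2 had a difference of the same direction, at 1.64 ± 0.30 (SE) on the log2 scale in the same term (edgeR, adjusted p = 0.0317). Its log2 fold change after 75 Gy was 1.23 at 2 weeks and 2.86 at 6 weeks. For both genes the control level was lower at 6 than at 2 weeks, by log2 fold changes of -0.54 for Cd209a and -0.62 for Mgl2 that did not pass the adjusted p (0.216 and 0.176).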

How the results depend on the processing

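Of the log2 fold changes of the 8 genes under all alternatives, 1752 kept their side of the call limits, 13 passed them in addition, 19 no longer passed, and 0 called values changed sign. Most of those that kept their side were not called in the main fit and had no call to lose. An uncalled value that changed sign and stayed uncalled was counted among them. When single libraries were left out, the number of genes called lay between 1 and 5 after 75 Gy at 2 weeks, where the 1 was without library 3134, between 5 and 6 after 75 Gy at 6 weeks, between 0 and 3 after 65 Gy at 2 weeks, and between 3 and 5 after 65 Gy at 6 weeks. A fit of the compared groups alone called 1 gene after 75 Gy at 2 weeks. By adjusted p alone, 4 genes passed after 65 Gy at 2 weeks. DESeq2 and edgeR's exact test each called 1 gene between the doses at 6 weeks, with no share of all genes called given beside it. The cause of these changes was not tested, except that a fit of fewer groups holds fewer samples. The genes most correlated with each member mostly changed under Spearman's rho and after subtraction of group means. No paired analysis was possible because the numbers in the labels identify single libraries and do not recur across groups. With 2 or 3 libraries per group, and as few as 27 counts for Batf3, smaller differences were not detectable.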
